A study of Mus musculus with 4 samples.

Results

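E2A binding was examined at 8 genes, the SLAM family receptor genes Slamf1, Slamf6, Slamf7, Cd84, Ly9, Cd48 and Cd244 on chromosome 1, and Sh2d1a on the X chromosome, which encodes the adaptor SAP. A peak was taken when its midpoint lay in the body of one of these genes or within 30 kb of it, and was given to the nearest transcription start site (TSS) among the 8 genes. The rule left 17 of the 17532 DP peaks and 1 of the 1516 iNKT peaks. The peaks come from E2A ChIP-Seq of DP (CD1dTet- CD4+ CD8+) and iNKT (CD1dTet+ TCRβ+) thymocytes of L-DKO mice aged 3 to 5 weeks, in which DNA bound by E2A is pulled down with an antibody and sequenced. In L-DKO mice, Id2 and Id3 carry floxed alleles on both chromosomes and are deleted by LckCre, which acts in cells of the T lineage. Both cell types carry this deletion, and no E2A library of Id-sufficient cells was part of the comparison. The animals were C57BL/6 mice or hybrids of C57BL/6 and 129, strains that are known to differ in their SLAM haplotypes (the strain behind each library was not stated), and cells of 3 to 4 mice were pooled for each sample. Each cell type had a single E2A library, called against 1 input, so no replicate gives an error and no test between cell types was made. The peak lists hold no expression values, and the sorted cell types could therefore not be checked against their marker genes.

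SLAM receptors are surface molecules of blood cells, and most of them bind the same receptor on a neighboring cell. In the thymus, DP cells present CD1d to one another, and contacts through SLAMF1 and SLAMF6 give the second signal that iNKT precursors need. The receptor tails recruit SAP, a small SH2 domain protein that brings in the kinase FYN. E2A is a basic helix-loop-helix factor that binds E-boxes (CANNTG), with a preference for CAGGTG, and Id proteins keep it off DNA.

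The score of a peak is the authors' MACS score, 10 times the negative log10 of its p-value against input. Scores reached 3225 in the DP list, with a median of 141, and 3100 in the iNKT list, with a median of 79.6. DP peaks at places 41 to 281 by score all had exactly 3100, so the score does not order them. No peak of the set scored this high. No peak of either list lay past the end of a chromosome of the mm9 assembly. The depth of the libraries is unknown, so scores were ranked within each list and not compared as amounts between the lists.

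The sequences that follow are the mm9 plus strand at the peaks on which the results turn, with CAGGTG, its reverse complement CACCTG and CAGCTG in capitals. In the Slamf6 peak upstream of the gene, which was called in both cell types, the capitals mark CAGGTG and the Tcf7/Lef1 core TCAAAG or its reverse complement CTTTGA instead. For the other peaks, the stretch with the most E-boxes is shown.
Slamf6, 1.22 kb upstream of the TSS, the only site in both lists (chr1:173846323-173846522): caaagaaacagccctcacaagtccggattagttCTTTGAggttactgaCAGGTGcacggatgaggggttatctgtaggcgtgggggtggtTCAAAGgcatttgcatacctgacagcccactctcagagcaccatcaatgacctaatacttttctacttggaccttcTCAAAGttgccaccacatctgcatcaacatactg
Slamf6, intron 1, highest score of the set (chr1:173849508-173849627): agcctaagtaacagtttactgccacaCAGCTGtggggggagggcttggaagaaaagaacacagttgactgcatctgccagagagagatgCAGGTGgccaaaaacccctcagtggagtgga
Slamf6, intron 1, second peak (chr1:173851199-173851318): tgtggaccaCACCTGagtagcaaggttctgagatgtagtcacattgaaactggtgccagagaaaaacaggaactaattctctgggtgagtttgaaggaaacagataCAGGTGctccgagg
Slamf1, exon 3 (chr1:173707280-173707399): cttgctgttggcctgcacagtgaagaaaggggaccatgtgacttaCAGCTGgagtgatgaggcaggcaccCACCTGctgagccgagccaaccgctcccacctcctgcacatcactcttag
Slamf1, intron 3 (chr1:173713114-173713233): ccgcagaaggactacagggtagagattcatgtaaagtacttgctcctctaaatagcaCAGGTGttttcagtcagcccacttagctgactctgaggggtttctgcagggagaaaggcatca
Slamf7, intron 1 (chr1:173577894-173578013): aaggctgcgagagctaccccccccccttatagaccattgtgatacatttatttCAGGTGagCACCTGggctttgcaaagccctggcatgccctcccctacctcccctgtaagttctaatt
Cd48, 8.88 kb upstream of the TSS (chr1:173603265-173603384): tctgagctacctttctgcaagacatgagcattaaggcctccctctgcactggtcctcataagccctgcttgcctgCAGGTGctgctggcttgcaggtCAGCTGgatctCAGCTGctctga
Sh2d1a, 37.5 kb downstream of the TSS and 16.2 kb past the gene end (chrX:39893108-39893227): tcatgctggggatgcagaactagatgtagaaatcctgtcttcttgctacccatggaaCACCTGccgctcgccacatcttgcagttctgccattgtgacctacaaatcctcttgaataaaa
In the Slamf7 peak, CAGGTG and CACCTG stood almost back to back, and in the Cd48 peak CAGGTG was followed by a pair of CAGCTG sites.

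Slamf6 had the largest number of peaks in the set, with 5 DP peaks, followed by Slamf1 with 4. Cd48 and Sh2d1a had 3 each, Ly9 and Slamf7 had 1 each, and Cd84 and Cd244 had none that was nearest to their own TSS. The 8 gene bodies were 16.6 to 51.0 kb long. Among the 22350 protein-coding genes of the annotation, 29.2% received a DP peak when each peak went to the nearest TSS among the genes whose window held it, and by this rule the same 6 of the 8 genes did. DP midpoints lay inside the body of these 6 genes, against 20.4% of protein-coding genes of any length. Longer bodies hold more midpoints, and this share was not matched for length. When a peak was counted for every gene whose body or 30 kb flanks held its midpoint, all 8 genes had a DP peak, against 46.4% of protein-coding genes and 52.9% of the 6024 with a body in the same range of lengths. These counts are not independent, since neighboring windows in the cluster share peaks, and the 17 DP peaks were counted 22 times. The cluster from Cd244 to Slamf6 with its flanks, chr1:173459324-173909083, spans 450 kb and held 14 DP peaks. Over 5858 consecutive stretches of the genome of the same length the mean was 2.99 and the median 0, and 5.27% of them held 14 or more. These stretches were not matched to the cluster for gene content.

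**Figure D1:**
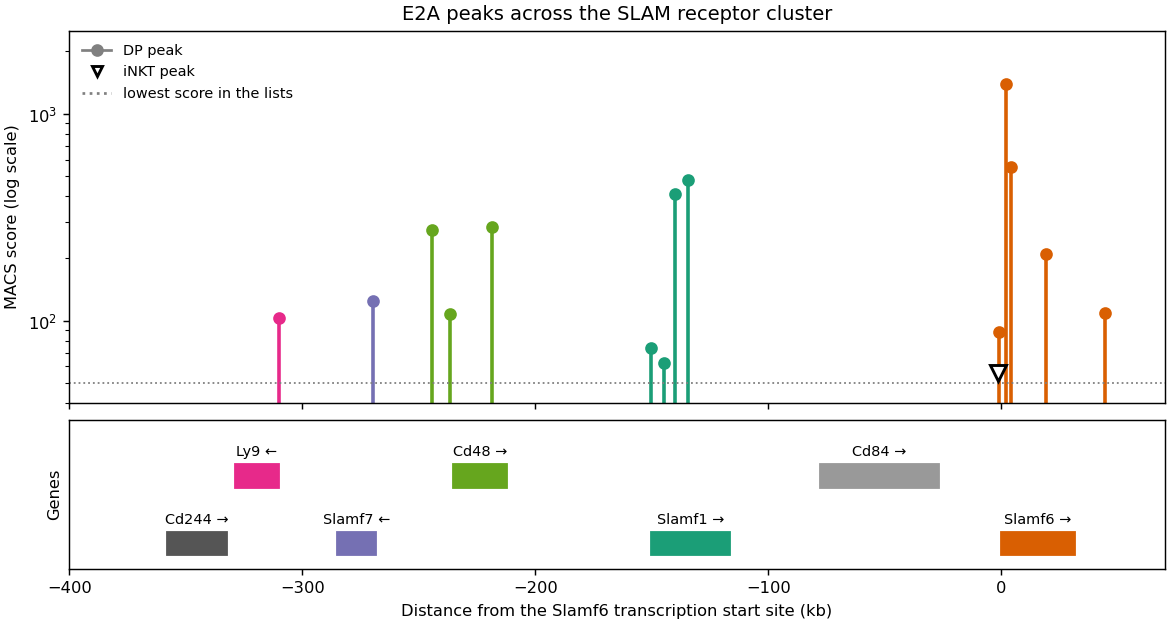
DP peaks (colored points on lines) and the iNKT peak (open triangle) by distance of the midpoint from the Slamf6 TSS in kb, with the MACS score on a log axis, over the 7 genes of the cluster (bars, arrows give the direction of transcription; the dotted line is the lowest score in the lists). Peaks stand at Slamf6, Slamf1 and Cd48, and none stands over Cd84 or Cd244. The only iNKT peak (score 55.9) overlaps the DP peak upstream of Slamf6.

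Slamf6 (Ly108) lies on the plus strand from 173847646 to 173879083. Its highest DP peak, chr1:173848530-173850320, lay in intron 1 with its midpoint 1.78 kb downstream of the TSS, had a score of 1388 and ranked 1101 in the DP list. This was the highest score in the set and placed the peak in the top 6.28% of the list. A second peak in intron 1, chr1:173850794-173852247, began 0.474 kb further on, with a score of 553 and rank 3052. The peak at chr1:173866224-173867416 had its midpoint in coding exon 3, a score of 209 and rank 6647. The upstream peak, chr1:173846109-173846735, had a score of 88.4 and ranked 11923, and the peak downstream of the gene, chr1:173891639-173892248, had 109 and ranked 10394. The intronic pair next to the TSS thus stood well above the other 3 peaks of the gene, and no DP peak covered the annotated TSS. Of all protein-coding genes, 7.14% had as many DP peaks as Slamf6 or more in the body and flanks, and 12.5% of the genes with a DP peak had a higher best score. In the peak over exon 3, 76.9% of words of 31 bases occurred once in the assembly, against 100% in the other 4 peaks of Slamf6. Reads with several equally good positions had been discarded, and the part of this in the score was not tested.

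Slamf1 (CD150), from 173697258 to 173731315 on the plus strand, had 4 DP peaks. The peak that covered the TSS, chr1:173696676-173697651, had a score of 73.4 and ranked 13468. The next, in intron 1, chr1:173702290-173702929, had 62.2 and ranked 15073. The peak with its midpoint in coding exon 3, chr1:173706893-173707876, 10.1 kb from the TSS, had 411 and ranked 3988. The peak in intron 3, chr1:173712290-173713514, 15.6 kb from the TSS, had 476 and ranked 3517. The peaks at exon 3 and in intron 3 were therefore above the upper quartile of the DP list, which was 366, and those on the TSS and in intron 1 were below the lower quartile, which was 76.2. No iNKT peak was called within 30 kb of Slamf1, and the nearest one was that of Slamf6, 149 kb from the Slamf1 TSS.

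Cd48, which encodes the GPI-anchored ligand of CD244, lies from 173612140 to 173635389 on the plus strand. It had a peak 8.88 kb upstream of its TSS, chr1:173602682-173603848, with a score of 273 and rank 5514, and a peak 1.01 kb upstream, chr1:173610743-173611522, with 107 and rank 10470. Another peak, in intron 2, chr1:173628650-173629656, had 282 and rank 5349. The outer and the intronic peak were thus nearly equal, and the peak closest to the promoter was the lowest. Of the 31-base words in the intronic peak, 67.3% occurred once in the assembly, the lowest share among the peaks of the set. Slamf7 (CRACC), on the minus strand from 173562534 to 173579149, had 1 peak in intron 1, chr1:173577751-173578215, with a score of 124 and rank 9539. Ly9 (CD229), on the minus strand from 173518755 to 173537541, had 1 peak over its TSS, chr1:173537101-173537892, with a score of 103 and rank 10791.

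Cd84, a receptor that binds itself, and Cd244 (2B4), the receptor for CD48, were without a peak of their own. Cd84, from 173769828 to 173820849, held no peak of either list in its body, and the DP midpoint nearest to its TSS was the Slamf1 peak in intron 3, 56.9 kb upstream. Its 30 kb flank reached a pair of Slamf6 peaks and the iNKT peak. In the body of Cd84, 69.5% of 31-base words occurred once in the assembly, against 84.1% to 98.2% in the bodies of the other 7 genes, and the part of this in the absence of peaks was not tested. Cd244, from 173489324 to 173515449, also held no peak in its body, where 94.1% of words occurred once. The DP midpoint nearest to its TSS was the Ly9 peak, 48.2 kb downstream. A DP peak with a score of 222, chr1:173433067-173433958, lay 55.8 kb from Cd244 and so outside the 30 kb limit, as did a DP peak with a score of 55.4, 52.5 kb past Slamf6. On chromosome 1, the DP peak farthest from a gene body within the limit was the one 12.9 kb past Slamf6.

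Sh2d1a lies alone on the X chromosome, from 39855630 to 39876874 on the plus strand. A DP peak covered its TSS, chrX:39855318-39856000, with a score of 57.3 and rank 15949, the lowest of the set and close to the calling threshold. The peak in intron 2, chrX:39872879-39873504, had a score of 84.6 and rank 12263. The highest of the 3, chrX:39892751-39893481, had a score of 185 and rank 7240, and was the only Sh2d1a peak above the median of the list. It lay 16.2 kb past the end of Sh2d1a and inside Odz1, a teneurin gene, and the TSS nearest to both of the latter peaks was that of the predicted gene Gm10483. By the stricter rule, which gives a peak to the nearest TSS of all protein-coding genes, Sh2d1a therefore kept only the peak on its TSS. The nearest iNKT peak was 5475 kb from the body of Sh2d1a. A DP peak 47.3 kb from the gene, with a score of 67.3, was outside the limit.

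**Figure D2:**
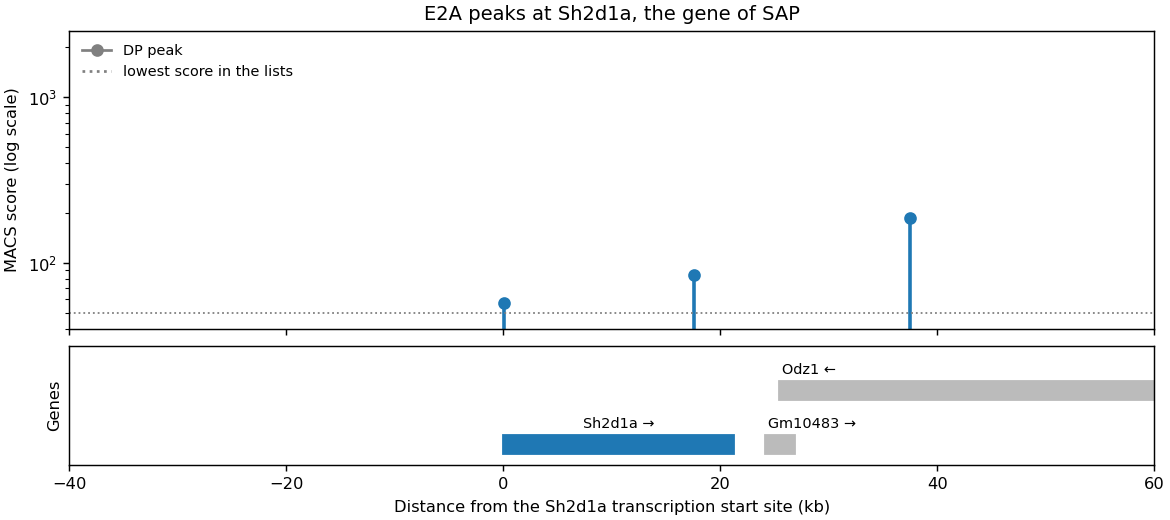
DP peaks by distance of the midpoint from the Sh2d1a TSS in kb, with the MACS score on a log axis, over Sh2d1a (blue bar) and neighboring genes (grey bars, Odz1 runs past the right edge). The score rises from 57.3 at the TSS to 185 inside Odz1, and no iNKT peak lies in this range.

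The peaks that covered a TSS were among the weaker ones of the set. DP peaks covered the TSS of 3 of the 8 genes (Slamf1, Ly9 and Sh2d1a), against 9.36% of all protein-coding genes, and their scores were 73.4, 103 and 57.3. The 1894 DP peaks of the whole list that covered a protein-coding TSS had a median score of 116, with quartiles of 71.8 and 256. Each of the 3 was thus below the median for peaks of this kind. Over the set, scores ran from 57.3 to 1388 with a median of 124, and 8 of the 17 were above the median of the list. By midpoint, 7 of the 17 DP peaks lay in introns, 2 in coding exons, 4 upstream and 2 downstream of their gene, and the other 2, those on the TSS of Ly9 and Sh2d1a, in transcribed sequence at the gene start.

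**Figure D3:**
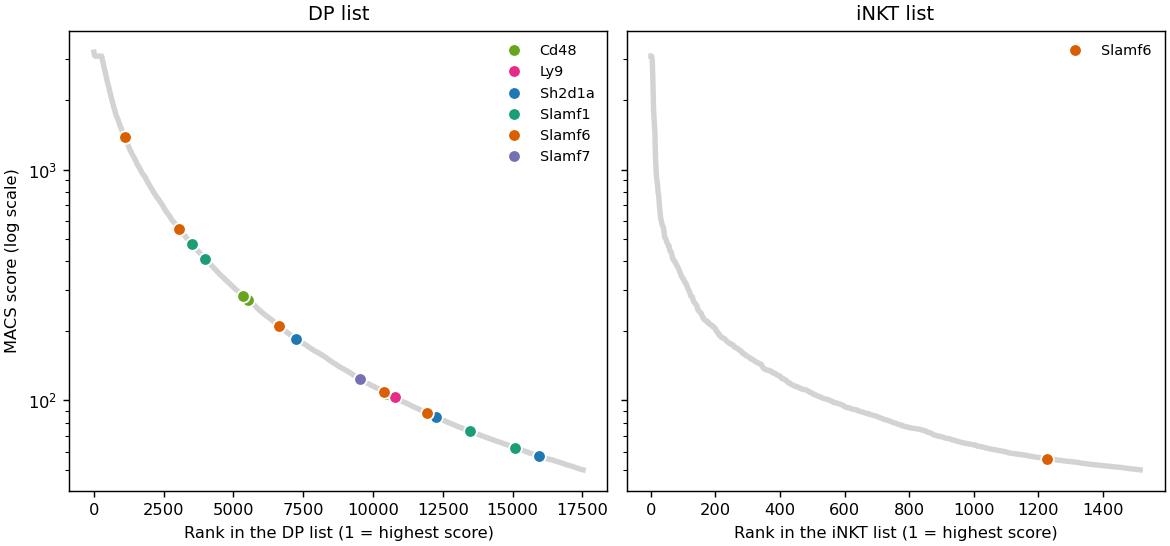
MACS score (log axis) against rank in the DP list (left) and the iNKT list (right), with all peaks of the list as the grey curve and the peaks at SLAM genes and Sh2d1a as colored points. The DP points spread from rank 1101 (Slamf6) to rank 15949 (Sh2d1a), and the single iNKT point stands at rank 1227 of 1516.

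In iNKT cells the set held a single peak, upstream of Slamf6. This peak, chr1:173845719-173846686, had a score of 55.9, ranked 1227 of 1516 in its list and lay 1.44 kb upstream of the TSS. It shared 578 bp with the DP peak upstream of Slamf6, whose score of 88.4 was in the lower part of the DP list. The iNKT list thus had a peak at 1 of the 8 genes when the peak went to the nearest TSS, against 4.67% of protein-coding genes. Counted for every gene whose flanks hold it, the peak also fell to Cd84, and 2 of 8 genes then had an iNKT peak, against 7.5% of all protein-coding genes and 7.74% of those with a body in the same range of lengths. No iNKT midpoint lay inside any of the 8 bodies, against 3.0% of genes of any length. The iNKT peak held 1 CAGGTG site in its whole length, as 80.9% of iNKT peaks held 1 or more, and none in the 200 bp at its midpoint, where 52.9% did. The next iNKT peak on the side of Cd244 was 714 kb from the cluster. Of the 450 kb stretches of the genome, 18.7% held 1 or more iNKT peaks.

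Overlap with the iNKT list was found for 1 of the 17 DP peaks, which is 5.88% (95% exact interval 0.149 to 28.7, for counting error only), and over all DP peaks the share was 5.99%. In the other direction, the 1 iNKT peak overlapped a DP peak, as did 69.3% of the iNKT list. The DP peak with the highest score at Slamf6 was not the one that overlapped. In the decile of DP peaks with the highest scores, 958 or more, 30.8% overlapped an iNKT peak, and the peak in intron 1 of Slamf6 belonged to this decile without overlapping one. In the fourth decile from the bottom, with scores of 84.5 to 107, 1.65% did, and the shared Slamf6 peak belonged to it. The peak in intron 1 had its midpoint 3.22 kb from that of the iNKT peak. With 1 library per cell type, the absence of an iNKT peak means that none passed the threshold at an unknown depth.

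**Figure D4:**
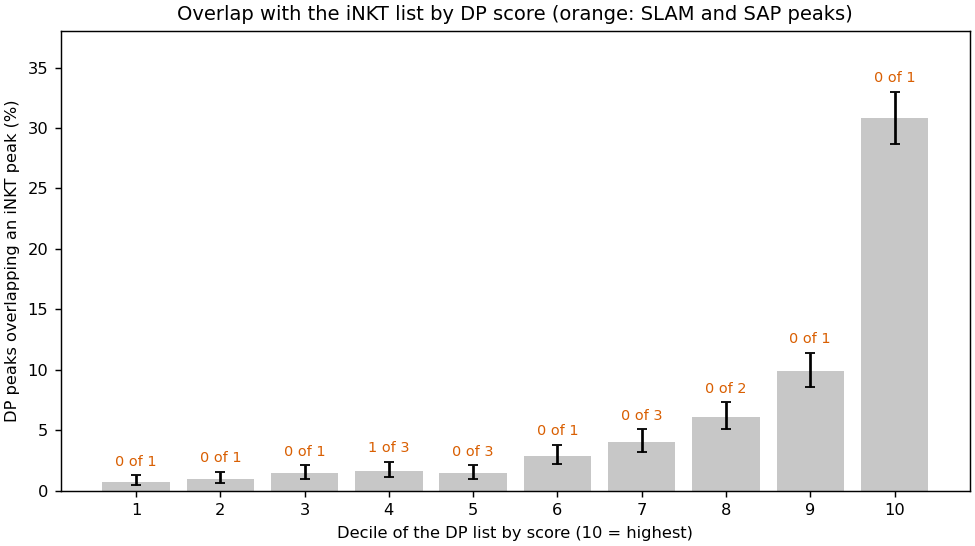
Percentage of DP peaks sharing 1 bp or more with an iNKT peak (bars, with 95% Wilson intervals for counting error) in deciles of the DP list from the lowest to the highest scores. Orange labels give how many of the SLAM and Sh2d1a peaks in each decile overlap one: 1 of 3 in the fourth decile and 0 elsewhere, while the share over all peaks rises to 30.8% in the highest decile.

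Motif cores were searched in either orientation. In the central 200 bp, around the midpoint, CAGGTG was present in 9 of the 17 DP peaks, against 43.9% of all DP peaks. CAGCTG was present in 4, against 29.0%, and 10 held one form or the other, against 60.8%. Over whole peaks, counts depend on width, and the 17 peaks had a median width of 792 bp against 984 bp for the DP list. In the whole length of the peaks, 15 of 17 held CAGGTG (27 sites in all), against 79.0% of the list, and the same 15 held either E-box, against 91.9%. CAGCTG was found in 7, against 63.4%. The remaining peaks were those on the TSS of Ly9 and Sh2d1a, which held neither form and had 5 and 1 sites of the general form CANNTG. Among the 1894 DP peaks that covered a TSS, 10.7% held neither. Both of these peaks held ACCACA, the Runx core, in the 200 bp at the midpoint, as did 6 of the 17 peaks against 23.8% of the list. In the whole length, 8 of 17 held ACCACA, against 63.5%. TCAAAG, the Tcf7/Lef1 core, was in 1 of 17 by the midpoint, against 17.4%, and in 11 by the whole length, against 55.6%. TTATCT, the Gata core, was in 1 by the midpoint, against 8.89%, and in 6 by the whole length, against 40.1%. The highest Slamf6 peak held 4 CAGGTG sites in its 1791 bp, and 12.1% of DP peaks held 4 or more. None of these 4 was within 100 bp of its midpoint, and the nearest was 174 bp away. A match to a core is a description of the sequence and does not show which site was bound.

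**Figure D5:**
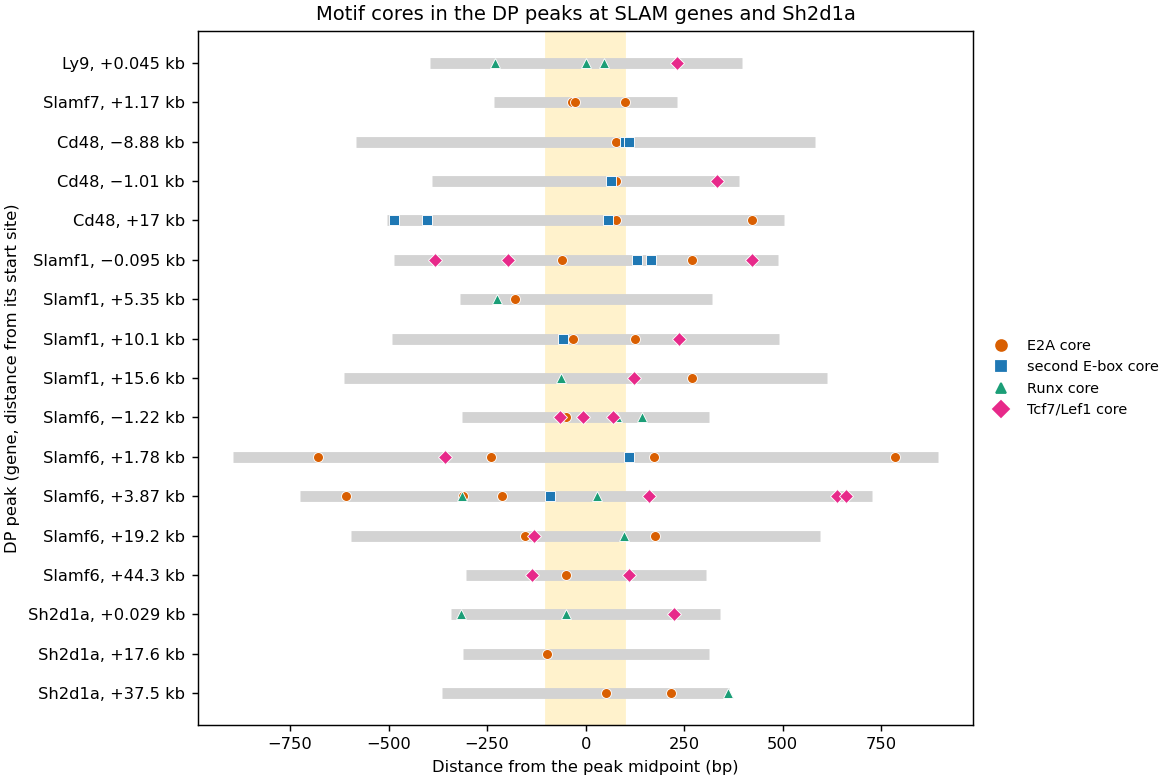
Position of motif cores in the 17 DP peaks (grey bars) in bp from the peak midpoint along the plus strand, with 1 line per peak named by gene and distance from its TSS, and the searched 200 bp shaded. E2A cores (CAGGTG, orange circles; CAGCTG are blue squares, Runx cores green triangles and Tcf7/Lef1 cores pink diamonds) are found in 15 peaks and are missing from those at the TSS of Ly9 and Sh2d1a.

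The signalling genes that act below these receptors were looked up by the same 30 kb rule, each peak counted for every gene whose window held it. A DP peak was found at 12 of 14 such genes, against 46.4% of protein-coding genes, and an iNKT peak at 2, against 7.5%. Their bodies reached 197 kb, and longer windows hold more peaks. Fyn, the kinase that SAP recruits, had 12 DP peaks with scores of up to 399 and no iNKT peak. Lck, the kinase of the T cell receptor, had 4 DP peaks, and the highest, chr4:129252062-129253063, 1.68 kb upstream, had a score of 1166, ranked 1369 and overlapped an iNKT peak with a score of 76.7. Nfkb1, a target of the SAP and FYN pathway, had 6 DP peaks, and its upstream DP peak, with a score of 414, overlapped an iNKT peak with a score of 112 that ranked 467. Prkcq, which encodes PKCθ, had 7 DP peaks and the highest, with a score of 1162, lay in an intron 1.77 kb from the TSS. Bcl10 and Malt1, which act in the activation of NF-κB, had 1 and 2 DP peaks. Csk, which encodes an inhibitor of these kinases, had 9, and Inpp5d (SHIP-1) had 7. Vav1 had 1, Ptpn6 (SHP-1) had 2 and Ptpn11 (SHP-2) had 3. The genes of the SAP-related adaptors, Sh2d1b1 and Sh2d1b2, had no peak of either list. Of the family members outside the cluster, Slamf9 had 1 DP peak with a score of 94.2, and Slamf8 had none.

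Outside the family, 112 protein-coding genes had the same numbers of peaks as Slamf6, 5 in DP and 1 in iNKT cells. Among the nearest to it in highest DP score were Camsap2 and Gpr25, neighbors that share a peak with a score of 1417. Likeness was measured over these 2 cell types only.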

How the data were processed

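E2A and input libraries were made from sorted DP and iNKT thymocytes, 1 of each per cell type. By the methods, alignment was to mm9 by Bowtie 1.1.2, which discarded reads with more than 1 equally good position, and MACS 1.4.2 was run with its defaults against input. The deposited values are positions and a MACS score per peak, called by the authors per cell type. Reads, inputs and coverage were not analysed here. Genes came from GENCODE M1 on NCBIM37, the assembly of mm9. Peaks were placed by midpoint, compared by an overlap of at least 1 bp, and ranked by score within each list. Exon and intron numbers refer to the transcript with the longest coding sequence. Cores were searched in 200 bp at the midpoint, and words of 31 bases were counted over the assembly. The functions passed 6 of 6 checks on a few peaks, genes and a sequence written by hand. The genes, the signalling list and the rule were chosen with earlier results of these data known. Named genes are the 8 genes, the other Slamf genes, the signalling list, genes nearer to a peak and the 3 genes most like Slamf6; a few of these are not reported here. Alternatives were other windows, minimum scores, overlaps and TSS rules. Intervals (95%) cover counting error only. Python 3.11.15, numpy 2.4.6, pandas 2.3.3, scipy 1.17.1, pysam 0.24.0 and matplotlib 3.10.9 were used.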

Additional observations from a re-analysis of the deposited data

How the results depend on the processing

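Alternatives gave 38 values of 9 results, and 18 of them moved (a share past its 95% interval, or a count by more than 1.5 times), while 20 did not. The cause was not tested, except that a higher minimum score, a shorter list or another window removes or adds peaks by construction. With a minimum score of 200, 7 DP peaks remained, at 3 of 8 genes (Slamf6, Slamf1 and Cd48), against 14.8% of protein-coding genes with each peak given to the nearest TSS. The iNKT list had 0 peaks at 0 genes with a minimum score of 100 and also with 200, and as depth is unknown, the same minimum need not be equally strict in both lists. With the DP list limited to its 1516 highest peaks, scores of 1081 or more, only 1 DP peak of the set remained, that in intron 1 of Slamf6. It overlapped no iNKT peak. The shared peak upstream of Slamf6, with a score of 88.4, was removed by construction, so the iNKT peak then overlapped no DP peak. The share of protein-coding genes with a DP peak was 34.0% with a window of 10 kb, 65.1% with 100 kb and 34.6% with a minimum score of 100, and for iNKT peaks it was 4.63%, 16.9% and 3.2%. With a minimum score of 200, chosen for this share after seeing the data, it was 25.1% for DP and 1.22% for iNKT peaks, and 5 and 0 of the 8 genes had one by the same windows. The share of the DP peaks of the set with CAGGTG was 88.2% in the whole peak and 76.5% in 400 bp. With a window of 100 kb and each peak given to the nearest TSS among the 8 genes, there were 22 DP peaks, at 7 genes, of which Cd244 was added. The 65.1% counts every gene whose window holds a peak, so it is no background for these 7 genes. No paired analysis was possible because there is 1 E2A library per cell type and no result comes from a test. The unknown depth limits every statement on a missing peak.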

Other observations

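The 200 bp at the midpoint of the DP peak shared upstream of Slamf6 held 3 TCAAAG sites, the Tcf7/Lef1 core, together with 1 CAGGTG. Of all 17532 DP peaks, 20 held 3 or more, which is 0.114%, and of the iNKT peaks 4 of 1516 did by their own midpoints. The iNKT peak upstream of Slamf6 was not one of these 4, since its 3 TCAAAG sites lay outside the 200 bp at its own midpoint. This was the only 1 of the 17 DP peaks with TCAAAG in the window, against 17.4% of the list. The site was picked out after its values were seen, and no test was made.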
